A study of Mus musculus with 12 samples.

Results

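The genes described are 10 that take up, store or release fatty acids and triglyceride, taken by symbol from the deposited expression table of mouse bone marrow-derived macrophages (BMDM). They are *Plin2*, *Hilpda*, *Lipg*, *Lpl*, *Fabp4*, *Fabp5*, *Dgat1*, *Dgat2*, *Pnpla2* and *Acsl1*, 10 of the 43280 genes in that table, and all 10 passed the filter on low values. The cells came from C57BL6 mice that were wild type (wt) or *Treml4*-/-, a deletion of a receptor of the TREM family on myeloid cells, and were grown from bone marrow with M-CSF. They received vehicle (M0) or lipopolysaccharide (LPS), the outer membrane glycolipid of Gram-negative bacteria, at 100 ng/ml for 8 h (M1-8 h) or 12 h (M1-12 h). Each of the 6 conditions had 2 biological replicates, which gave 12 libraries of poly(A) RNA. The sources used here do not give the age of the mice of these cultures or say whether each replicate was a single mouse, so p-values measure the spread between these libraries.

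Fatty acids enter a macrophage after lipases at the cell surface release them from lipoproteins, and fatty acid-binding proteins carry them inside. Acyl-CoA synthetases activate them, diacylglycerol acyltransferases join them to diacylglycerol as triglyceride, and the triglyceride is kept in droplets coated with perilipins. Adipose triglyceride lipase opens these stores again, and the small droplet protein HILPDA inhibits it. Macrophages that fill with such droplets are the foam cells of atherosclerotic plaques.

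RefSeq promoter windows of GRCm38.p6 were examined for 4 of the 10 genes, with *Lipg* not among them. Each window ran from 250 bases before to 50 after a transcript start. One window per gene is printed. These 4 genes were not selected by their response, and they include a pair that rose with LPS (*Hilpda*, *Acsl1*) and the lipase that fell (*Pnpla2*). Capitals mark the core of the hypoxia response element (ACGTG or GCGTG, read on either strand) and matches to the NF-kB consensus. The windows are *Hilpda* at chr6:29272238-29272537 on the plus strand, *Acsl1* at chr8:46470787-46471086 on the plus strand, *Plin2* at chr4:86670010-86670309 on the minus strand and *Pnpla2* at chr7:141454938-141455237 on the plus strand.
Hilpda: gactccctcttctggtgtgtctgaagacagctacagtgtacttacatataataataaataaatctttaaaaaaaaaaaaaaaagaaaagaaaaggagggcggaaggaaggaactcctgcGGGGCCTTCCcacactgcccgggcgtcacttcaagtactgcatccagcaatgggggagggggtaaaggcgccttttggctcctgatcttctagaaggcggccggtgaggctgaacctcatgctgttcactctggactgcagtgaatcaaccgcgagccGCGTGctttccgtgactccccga
Acsl1: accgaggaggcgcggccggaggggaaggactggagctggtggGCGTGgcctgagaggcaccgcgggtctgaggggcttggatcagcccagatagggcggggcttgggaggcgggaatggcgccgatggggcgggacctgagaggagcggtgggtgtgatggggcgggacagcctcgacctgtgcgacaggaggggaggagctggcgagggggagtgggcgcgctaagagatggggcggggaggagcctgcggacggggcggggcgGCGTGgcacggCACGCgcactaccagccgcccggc
Plin2: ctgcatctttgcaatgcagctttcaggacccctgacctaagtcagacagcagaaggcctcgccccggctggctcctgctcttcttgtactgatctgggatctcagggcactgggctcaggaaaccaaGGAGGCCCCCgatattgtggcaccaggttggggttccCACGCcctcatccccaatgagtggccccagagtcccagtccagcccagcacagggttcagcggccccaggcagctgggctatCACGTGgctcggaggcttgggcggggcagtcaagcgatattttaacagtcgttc
Pnpla2: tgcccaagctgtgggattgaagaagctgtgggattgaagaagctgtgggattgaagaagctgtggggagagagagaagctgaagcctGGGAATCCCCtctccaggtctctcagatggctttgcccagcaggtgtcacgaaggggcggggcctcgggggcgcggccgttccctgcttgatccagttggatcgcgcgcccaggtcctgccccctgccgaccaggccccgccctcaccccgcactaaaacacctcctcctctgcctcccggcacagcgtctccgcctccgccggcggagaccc
The *Hilpda* window held 1 hypoxia core, 28 bases after the start, and 1 NF-kB match. A second RefSeq start of *Hilpda*, with its window at chr6:29272376-29272675, held 3 hypoxia cores and 0 NF-kB matches. These windows overlap, and 1 of the 3 cores is the same site as the core of the first window. The *Acsl1* window held 3 hypoxia cores, while the window of a second start, at chr8:46490716-46491015, held 0 hypoxia cores and 0 NF-kB matches. The *Plin2* window held 3 hypoxia cores, of which 2 are the overlapping readings of 1 palindrome, with 1 NF-kB match. The *Pnpla2* window held 0 hypoxia cores and 1 palindromic NF-kB site, counted once on each strand. Such letters are common, since 43.8% of 32851 promoter windows held a hypoxia core and 8.46% an NF-kB match, and a match is a description of the sequence only.

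In all, 48008751 to 58500792 reads were counted per library. *Treml4* had 0 reads in the 6 *Treml4*-/- libraries, which allows up to 0.0625 CPM, and 3.95 to 13.2 CPM (counts divided by library size) in the wt libraries. All 7 macrophage markers were above 1 CPM in every condition, and the 6 LPS response genes summed to 83.2 to 113 CPM at M0 and to 23662 to 27852 CPM after LPS. Adipocytes also use most of the 10 genes, but the 6 adipocyte markers summed to at most 0.0384 CPM, with *Lep*, *Plin1* and *Cidec* at 0 reads throughout. Markers of T and B cells summed to at most 0.328 CPM and erythroid markers to at most 0.206 CPM. Summed dendritic cell markers went from 0.688 to 1.28 CPM at M0 to 15.2 to 29.5 CPM after LPS. Within that list *Ccr7*, *Xcr1* and *Clec9a* rose, *Ccr7* to 7.72 to 21.5 CPM, while *Flt3* fell and *Zbtb46* had at most 0.337 CPM. Stromal and endothelial markers went from 1.24 to 3.78 CPM to 9.50 to 17.7 CPM. Most of the latter was *Pecam1*, with 7.30 to 15.1 CPM after LPS. *Cdh5* rose too, while *Col1a1* and *Col1a2* had at most 0.701 CPM after LPS and up to 1.25 CPM at M0. The part of either list in the results was not tested. In such bulk libraries, fewer cells of a type and less RNA per cell cannot be told apart.

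CPM divide each gene by the reads of its library, and with LPS the 100 most read genes took a larger share of those reads, 27.9 to 30.4% at M0, 32.4 to 33.5% at M1-8 h and 36.1 to 37.3% at M1-12 h. The median log2 fold change of all 12086 genes tested was -0.72 at 8 h and -0.76 at 12 h of LPS. The LPS changes of the 10 genes are given on CPM and again after median of ratios scaling, which sets the typical gene near 0 and moved the median of all genes by 0.69 and 0.72 at the 2 times. Values of other genes are on CPM unless the scaling is named. The test was limma on log2(CPM + 1), with Benjamini-Hochberg adjustment over all genes tested. A gene is called here where its adjusted p was under 0.05 and it changed at least 1.4-fold.

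On CPM, 3 of the 10 genes were called higher at 8 h of LPS (*Hilpda*, *Lipg*, *Acsl1*), beside 17.1% of all genes tested, and 6 lower, beside 59.8%. The same 3 were called higher at 12 h, beside 16.3%, and 5 lower, beside 60.3%. After median of ratios scaling 4 were called higher at 8 h, with *Dgat2* added, beside 31.1% of all genes, and only *Pnpla2* lower, beside 31.4%. At 12 h that scaling called 5 higher, with *Plin2* and *Dgat2* added, beside 32.7%, and *Lpl* and *Pnpla2* lower, beside 32.6%. The median log2 fold change of the 10 genes was -0.79 at 8 h and -0.38 at 12 h on CPM, beside -0.72 and -0.76 for all genes. *Hilpda*, *Lipg*, *Acsl1* and *Pnpla2* thus kept their direction and call at both times under both scalings.

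**Figure D1:**
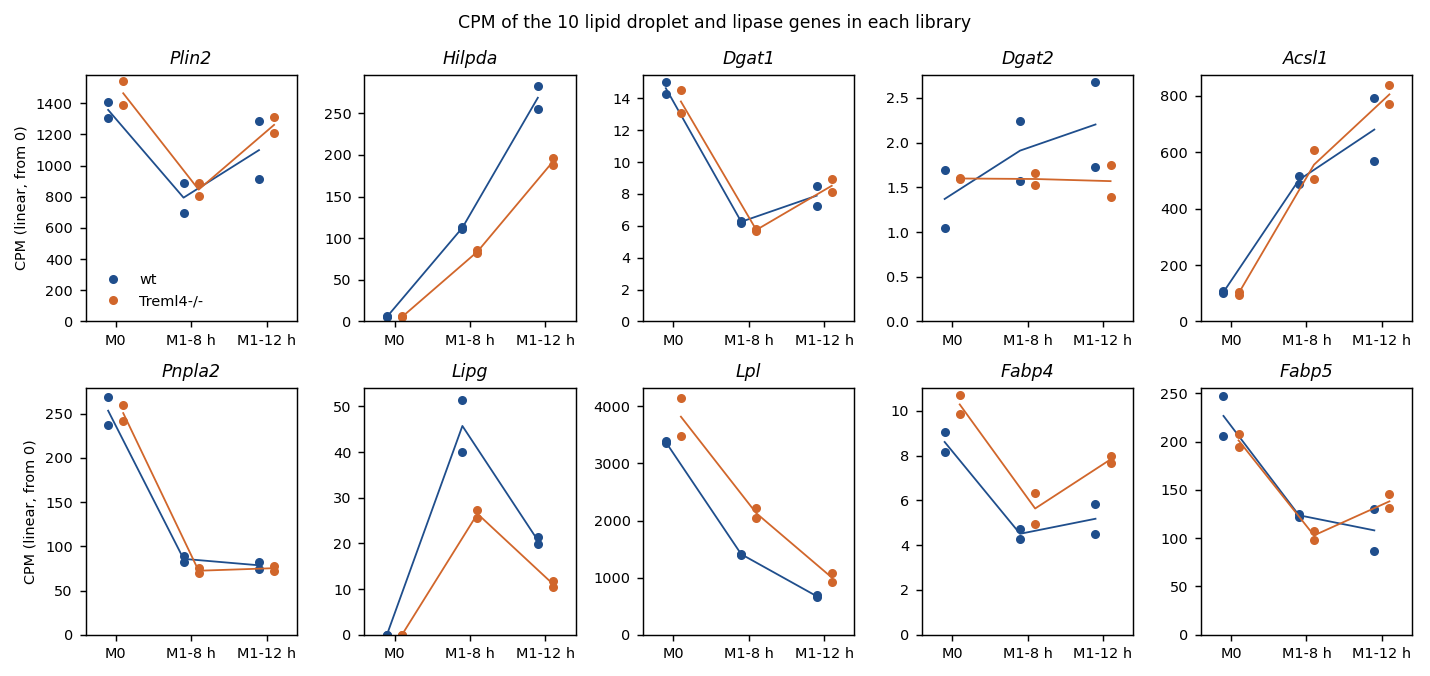
CPM (linear axis from 0) of each of the 10 genes in the 12 libraries, wt in blue and *Treml4*-/- in orange, at M0, M1-8 h and M1-12 h. Points are libraries and lines join the means of 2; *Hilpda*, *Lipg* and *Acsl1* stand far above M0 after LPS, *Pnpla2* and *Lpl* far below it.

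*Hilpda*, the hypoxia-inducible inhibitor of adipose triglyceride lipase, rose at 8 h and again at 12 h of LPS. It had 5.26 and 5.96 CPM in wt and 5.99 and 4.96 CPM in *Treml4*-/- libraries at M0. At M1-8 h it had 112 and 114 CPM in wt and 85.3 and 82.6 CPM in *Treml4*-/- libraries, and at M1-12 h 255 and 283 CPM and 188 and 196 CPM. All LPS libraries lay above all M0 libraries, and all 12 h libraries above all 8 h libraries. The log2 fold change was 3.91 ± 0.071 (SE) at 8 h and 5.13 ± 0.071 at 12 h on CPM (limma, adjusted p = 1.02e-12 and 1.46e-13), and 4.61 and 5.88 after median of ratios scaling. From 8 to 12 h it rose by a further 1.21 on CPM (limma, adjusted p = 1.76e-07) and by 1.27 after median of ratios scaling.

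*Plin2*, the perilipin that coats droplets in most cells, moved the other way at 8 h on CPM. It had 1308 and 1407 CPM in wt and 1542 and 1386 CPM in *Treml4*-/- libraries at M0. At M1-8 h it had 889.7 and 699 CPM and 888 and 804 CPM, and at M1-12 h 1286 and 913 CPM and 1209 and 1314 CPM. All 8 h libraries were below all others, and 1 library at 12 h, with 1314 CPM, exceeded the lowest M0 library. The log2 fold change at 8 h was -0.79 ± 0.11 (SE) on CPM (limma, adjusted p = 3.41e-05) but 0.01 after median of ratios scaling. At 12 h it was -0.27 on CPM, under the minimum fold, and 0.58 after median of ratios scaling, where it was called higher (limma, adjusted p = 8.23e-04), while quantile normalization gave -0.71, called lower (limma, adjusted p = 4.74e-05). The rise from 8 to 12 h, 0.52 ± 0.11 (SE), was called (limma, adjusted p = 0.00204) and was 0.57 after median of ratios scaling.

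*Acsl1*, the acyl-CoA synthetase that activates long-chain fatty acids, had 109 and 99.8 CPM in wt and 93.4 and 105 CPM in *Treml4*-/- libraries at M0. At M1-8 h the values were 487 and 516 CPM in wt and 608 and 503 CPM in *Treml4*-/- libraries, and at M1-12 h 568 and 792 CPM and 838 and 771 CPM. No LPS library overlapped an M0 library. On the log2 scale it rose by 2.36 ± 0.10 (SE) at 8 h and 2.84 ± 0.10 at 12 h on CPM (limma, adjusted p = 1.04e-09 and 2.36e-10), and 3.16 and 3.69 after median of ratios scaling. From 8 to 12 h it changed by 0.48 on CPM, under the minimum fold, and by 0.53 after median of ratios scaling, called higher (limma, adjusted p = 6.18e-04). The gene overlaps an antisense transcript model, *Gm45244*, and whether counting used strand is not given in the sources used here.

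*Dgat1* and *Dgat2* encode the enzymes of the last step of triglyceride synthesis. *Dgat1* had 13.1 to 15.0 CPM at M0, 5.69 to 6.33 CPM at M1-8 h and 7.27 to 8.92 CPM at M1-12 h, and the 3 ranges did not overlap. Its log2 fold change was -1.12 at 8 h and -0.73 at 12 h on CPM (limma, adjusted p = 7.84e-08 and 3.79e-06). After median of ratios scaling it was -0.40 at 8 h, under the minimum fold, and 0.05 at 12 h. *Dgat2* had 1.04 to 1.70 CPM at M0 and 1.39 to 2.68 CPM after LPS, ranges that overlap. Its log2 fold change of 0.15 and 0.21 was not called on CPM (limma, adjusted p = 0.282 and 0.143) and was 0.62 and 0.71, called, after median of ratios scaling.

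*Pnpla2*, which encodes adipose triglyceride lipase, fell at 8 h and stayed as low at 12 h. It had 237 and 269 CPM in wt and 259.5 and 241 CPM in *Treml4*-/- libraries at M0, and 69.6 to 89.5 CPM in the 8 LPS libraries, with no overlap. Its log2 fold change was -1.66 ± 0.068 (SE) at 8 h and -1.70 ± 0.068 at 12 h on CPM (limma, adjusted p = 6.21e-10 and 5.11e-10), and -0.87 and -0.85 after median of ratios scaling. From 8 to 12 h the difference was -0.04, with a 95% interval of -0.19 to 0.12.

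**Figure D2:**
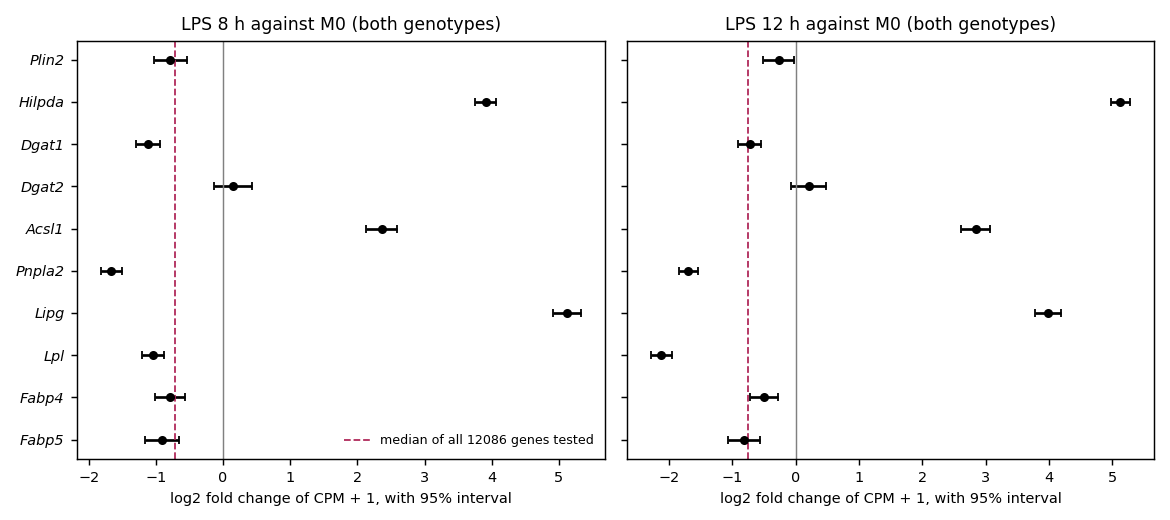
Log2 fold change of CPM + 1 for each of the 10 genes, LPS 8 h (left) and 12 h (right) against M0 over both genotypes, with 95% intervals from limma. The dashed line is the median of all 12086 genes tested, -0.72 and -0.76, and *Plin2*, *Fabp4* and *Fabp5* lie on or near it at 8 h while *Hilpda*, *Lipg* and *Acsl1* lie far to its right and *Pnpla2* to its left.

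Of the lipases at the cell surface, *Lipg* (endothelial lipase, which mainly cuts phospholipids of HDL) rose and *Lpl* (lipoprotein lipase, which cuts triglyceride of lipoproteins) fell. *Lipg* had 2 and 1 reads in the wt libraries and 1 read in each *Treml4*-/- library at M0, 0.0187 to 0.0386 CPM. At M1-8 h it had 51.5 and 39.9 CPM in wt and 27.3 and 25.6 CPM in *Treml4*-/- libraries, and at M1-12 h 21.3 and 20.0 CPM and 10.5 and 11.8 CPM. Per read sequenced, the summed *Lipg* reads at M1-8 h were 1556 times those at M0 in wt (95% interval 532 to 7549) and 1359 times in *Treml4*-/- cells (376 to 11226), and at M1-12 h 708 times (242 to 3434) and 573 times (158 to 4736). These exact intervals cover counting error only. On log2(CPM + 1), which understates such a rise, the log2 fold change was 5.12 at 8 h and 3.98 at 12 h (limma, adjusted p = 1.02e-12 and 7.73e-12), and 5.38 and 4.28 after median of ratios scaling. From 8 to 12 h *Lipg* fell by 1.14 on the log2 scale of CPM (limma, adjusted p = 1.77e-06) and by 1.10 after median of ratios scaling.

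At M0 *Lpl* had 3385 and 3362 CPM in wt and 3488 and 4149 CPM in *Treml4*-/- libraries. At M1-8 h it had 1405 and 1415 CPM in wt and 2211 and 2045 CPM in *Treml4*-/- libraries, and at M1-12 h 693 and 658 CPM and 1079 and 927 CPM. The ranges of the 3 times did not overlap. On the log2 scale the change was -1.05 ± 0.075 (SE) at 8 h and -2.12 ± 0.075 at 12 h on CPM (limma, adjusted p = 7.40e-08 and 1.92e-10). After median of ratios scaling it was -0.25 at 8 h, under the minimum fold, and -1.27 at 12 h, called lower. From 8 to 12 h it fell by 1.07 on CPM (limma, adjusted p = 5.89e-07) and by 1.02 after median of ratios scaling. With *Plin2* and *Hilpda* higher and *Lipg* and *Lpl* lower, 2 and 2 of the 10 genes were called between the LPS times on CPM, beside 13.5% and 18.7% of all genes, and with *Acsl1* added 3 and 2 after median of ratios scaling, beside 15.5% and 17.1%.

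*Fabp4* and *Fabp5* encode cytosolic fatty acid carriers of adipocytes and macrophages. *Fabp5* had 194 to 248 CPM at M0, 98.2 to 126 CPM at M1-8 h and 86.3 to 145 CPM at M1-12 h. *Fabp4* had 8.16 to 10.7 CPM, 4.29 to 6.31 CPM and 4.51 to 7.97 CPM at the same times. Both were called lower on CPM at 8 h, with log2 fold changes of -0.91 for *Fabp5* and -0.79 for *Fabp4*, and at 12 h, with -0.81 and -0.50. After median of ratios scaling the values were -0.12 and -0.09 at 8 h and 0.03 and 0.25 at 12 h, none of them called. *Fabp5l2*, a near copy of *Fabp5*, had at most 0.183 CPM, and reads split between such copies would make the *Fabp5* values uncertain.

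Levels of different genes were compared as CPM per kilobase of summed exons, with the annotation of GRCm38. By this measure *Plin2* was first in all 6 conditions, with 387 ± 19.9 CPM per kilobase (SD, n = 2) in wt at M0, and *Lpl* was second at M0 with 322 ± 1.52. Summed exons were 3512 bases for *Plin2* and 10478 for *Lpl*, while their longest transcripts were 1888 and 4115 bases. The order of *Plin2* and *Lpl* therefore depends on the length used, and no order by transcript length was made. *Hilpda*, which was sixth at M0 with 5.09 ± 0.446, was the third at M1-8 h with 102 ± 1.36 and second at M1-12 h with 244 ± 17.9 in wt. At M1-12 h its 231 to 256 in wt lay just below the range of *Plin2*, 259.9 to 366, so these neighbours in the order were separated by less than the spread of *Plin2*. *Pnpla2* went from the third place at M0 to the sixth at both LPS times in both genotypes.

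Between genotypes at M0, 0 of the 10 genes were called, beside 0.0993% of all genes, and 0 had an unadjusted p under 0.05. The log2 fold changes of wt over *Treml4*-/- at M0 lay between -0.23 (*Fabp4*) and 0.17 (*Fabp5*). At M1-8 h 0 were called, beside 0.091% of all genes, while 4 had an unadjusted p under 0.05, as did 2539 of all 12086 genes. At M1-12 h 1 was called higher in wt, *Lipg*, beside 0.0496%, and 5 had an unadjusted p under 0.05, as did 912 of all genes. The same test on whole reads with voom called 0 of the 10 at each time.

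*Lipg* was higher in both wt than in both *Treml4*-/- libraries at each LPS time. The means were 45.7 ± 8.16 CPM in wt and 26.5 ± 1.22 CPM in *Treml4*-/- cells at M1-8 h and 20.7 ± 0.977 and 11.1 ± 0.928 CPM at M1-12 h (SD, n = 2). The log2 fold change was 0.76, with a 95% interval of 0.46 to 1.05, at M1-8 h (limma, adjusted p = 0.101) and 0.84, with 0.55 to 1.13, at M1-12 h (limma, adjusted p = 0.0418). After median of ratios scaling *Lipg* was called at both times, with 0.89 (limma, adjusted p = 0.0249), beside 0.0745% of all genes called higher, and 0.93 (limma, adjusted p = 0.0128), beside 0.0993%. The call at M1-12 h on CPM was kept without either wt M1-8 h library and lost without any 1 of the other 10 libraries, at a limma adjusted p of 0.0657 to 0.663, highest without *Treml4*-/- M1-12 h replicate 1. Over all alternatives it lay between 0.0128 and 0.663.

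*Lpl* was lower in both wt than in both *Treml4*-/- libraries at each LPS time, opposite to *Lipg*. The means were 1410.2 ± 7.44 CPM in wt and 2128 ± 117 CPM in *Treml4*-/- cells at M1-8 h and 676 ± 25.1 and 1003 ± 107 CPM at M1-12 h (SD, n = 2). The difference on the log2 scale was -0.59, with a 95% interval of -0.83 to -0.36, and -0.57, with -0.80 to -0.33, and neither passed the adjustment (limma, adjusted p = 0.101 and 0.116). Leaving out a library of M1-8 h leaves 1 in its group, so only sizes are given for these fits. Without *Treml4*-/- M1-8 h replicate 1 the difference at M1-8 h was 0.80 for *Lipg* and -0.54 for *Lpl*, and without replicate 2 it was 0.71 and -0.65. Without wt M1-8 h replicate 1 it was 0.58 and -0.59, and without wt replicate 2 it was 0.93 and -0.60. With all 12 libraries 4 of all genes were called higher in wt than in *Treml4*-/- cells at M1-8 h and 7 lower.

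*Hilpda* also separated the genotypes after LPS, with both wt above both *Treml4*-/- libraries at each time. The log2 fold change was 0.42, with a 95% interval of 0.20 to 0.64, at M1-8 h and 0.48, with 0.26 to 0.70, at M1-12 h, and neither was called (limma, adjusted p = 0.132 and 0.142). The paper, which used DESeq2 rather than limma, names *Lipg* and *Hilpda* among the lipid regulation genes that *Treml4* affects. Its pathway analysis was of M1 macrophages after 8 h. At M1-8 h neither gene was called here on CPM, and *Lipg* was called at M1-12 h. *Pnpla2* at M1-8 h had 0.24, with an interval of 0.03 to 0.46 (limma, adjusted p = 0.204), and 0.07 once GC content and transcript length were corrected for. *Fabp4* and *Fabp5* at M1-12 h had -0.52 and -0.38, also not called (limma, adjusted p = 0.283 and 0.617). For *Plin2*, *Dgat1*, *Dgat2* and *Acsl1* the intervals held 0 at each time, and the widest bound was 0.70 (*Dgat2* at M1-12 h).

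**Figure D3:**
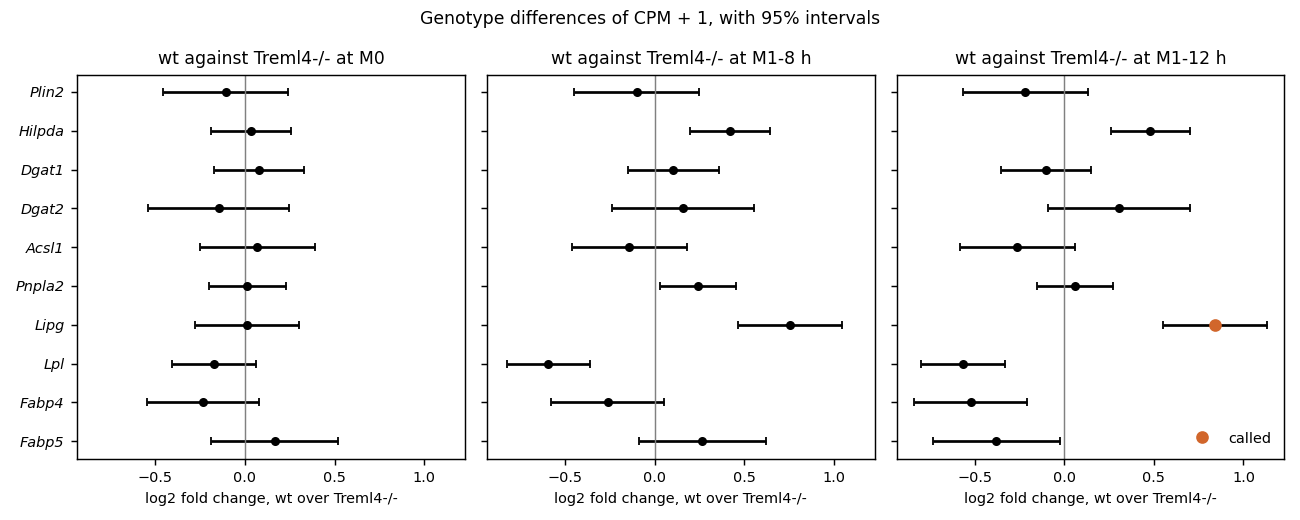
Log2 fold change of CPM + 1 of wt over *Treml4*-/- for the 10 genes at M0 and both LPS times, with 95% intervals from limma, and the call in orange. At M0 all 10 intervals hold 0; after LPS *Lipg* and *Hilpda* lie right of 0 and *Lpl* left of it at both times, and *Lipg* at M1-12 h, 0.84, is called.

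On log2(CPM + 1), the LPS response of *Lipg* was larger in wt by 0.74 at 8 h and 0.83 at 12 h, that of *Hilpda* by 0.39 and 0.45, and that of *Lpl* differed by -0.42 and -0.39. None of these interaction terms passed the adjustment (limma, lowest adjusted p of the 10 genes 0.729 at 8 h and 0.999 at 12 h), and 0 of the 10 genes were called at either time, beside 0.00827% and 0.00827% of all genes. At an unadjusted p under 0.05, 3 of the 10 and 806 of all genes passed at 8 h and 4 and 462 at 12 h, and voom called 0. At M0 *Lipg* had 1 or 2 reads per library, so its interaction term on log2(CPM + 1) mostly repeats the genotype difference after LPS. Its rise per read, 1556 times in wt and 1359 times in *Treml4*-/- cells at 8 h, had overlapping intervals, as it did at 12 h. Summed neutrophil markers were 55.3 to 59.7 CPM in wt and 69.2 to 89.7 CPM in *Treml4*-/- libraries at M1-8 h and 41.6 to 52.0 and 48.5 to 60.8 CPM at M1-12 h. At M0 the sums were 32.5 to 85.0 CPM in wt and 87.6 to 103 CPM in *Treml4*-/- libraries. Of the 6 neutrophil markers, 5 were above 1 CPM in both libraries of each M0 and M1-8 h group and *Ly6g* had at most 7 reads in any library, and the part of these markers in the genotype differences was not tested. The stromal and endothelial sums also separated the genotypes after LPS, with 10.97 to 11.9 CPM in wt and 9.50 to 10.7 CPM in *Treml4*-/- libraries at M1-8 h and 17.0 to 17.7 and 12.4 to 12.5 CPM at M1-12 h, and at M0 they were 1.24 to 3.78 and 1.66 to 2.10 CPM. After LPS these sums were mostly *Pecam1*, at M1-12 h 13.5 and 15.1 CPM in wt and 9.29 and 9.58 CPM in *Treml4*-/- libraries. For *Cdh5* the genotypes overlapped at both LPS times. The macrophage sums were 22962 to 27537 CPM in wt and 20468 to 20694 CPM in *Treml4*-/- libraries at M0, 11454 to 12895 and 9951 to 10570.2 CPM at M1-8 h, and 10019.8 to 10592.5 and 9712 to 10070.2 CPM at M1-12 h. Their largest gene was *Lyz2*, at M1-8 h with 5007 and 6514 CPM in wt and 4254 and 4019 CPM in *Treml4*-/- libraries. At that time *Emr1* (now *Adgre1*), *Cd68* and *Fcgr1* also lay higher in wt, *Itgam* and *Mertk* lay lower, and *Csf1r* overlapped. The part of the stromal and endothelial or of the macrophage markers in the genotype differences was not tested.

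Ratios of reads within 1 library do not depend on its scaling. Of the pairs shown, chosen after the values were seen, *Lipg* had 0.0366 and 0.0282 reads per *Lpl* read in wt and 0.0124 and 0.0125 in *Treml4*-/- libraries at M1-8 h, and 0.0308 and 0.0303 against 0.00969 and 0.0127 at M1-12 h. The genotypes did not overlap at either time, and at M0 the ratio rested on 1 or 2 *Lipg* reads. *Hilpda* had 0.0205 to 0.0231 reads per *Pnpla2* read at M0. At M1-8 h it had 1.36 and 1.27 in wt and 1.13 and 1.19 in *Treml4*-/- libraries, and at M1-12 h 3.41 and 3.43 against 2.60 and 2.51. *Acsl1* had 0.457 and 0.371 reads per *Pnpla2* read in wt and 0.360 and 0.436 in *Treml4*-/- libraries at M0. At M1-8 h it had 5.93 and 5.77 in wt and 8.09 and 7.23 in *Treml4*-/- libraries, and at M1-12 h 7.61 and 9.62 against 11.6 and 9.86, so that here *Treml4*-/- lay above wt after LPS. *Dgat2* had 0.0732 to 0.123 reads per *Dgat1* read at M0 and 0.156 to 0.355 after LPS, and the genotypes overlapped at M1-8 h while wt lay above at M1-12 h. All 4 ratios were higher in each LPS library than in each M0 library.

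**Figure D4:**
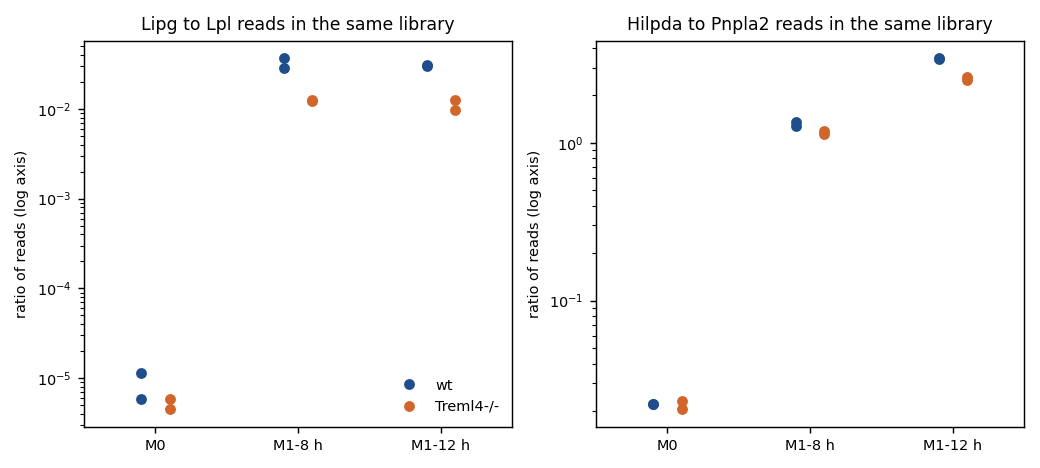
Ratio of *Lipg* to *Lpl* reads (left) and of *Hilpda* to *Pnpla2* reads (right) in each library, on log axes, wt in blue and *Treml4*-/- in orange. Both ratios are far higher in the 8 LPS libraries than in the 4 M0 libraries, and wt lies above *Treml4*-/- after LPS in both panels.

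The 10 genes were set beside 88 other genes of neutral lipid handling, of which 59 passed the filter. On CPM 9 were called higher and 43 lower at 8 h of LPS, beside 17.1% and 59.8% of all genes, and 9 and 40 at 12 h, beside 16.3% and 60.3%. After median of ratios scaling these counts were 15 and 24, beside 31.1% and 31.4%, and 16 and 21, beside 32.7% and 32.6%. The counts by role that follow stand beside the same shares of all genes, and with few genes per role nothing is called particular to a role. The median log2 fold change of the 59 was -0.94 and -0.80 on CPM, beside -0.72 and -0.76 for all genes. Between genotypes 0 of the 59 were called by limma at M0, M1-8 h or M1-12 h.

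Among the other droplet proteins, 6 of 15 passed the filter, and *Plin1* and *Cidec*, the droplet proteins of fat cells, had 0 reads. On CPM 1 was called higher and 5 lower at 8 h, and after median of ratios scaling 1 and 2. *Fitm2*, which helps droplets bud from the endoplasmic reticulum, changed by -1.87 at 8 h and -2.05 at 12 h on the log2 scale of CPM, and *Plin3*, a perilipin of small droplets, by -2.02 and -0.997. *Bscl2*, which encodes seipin, changed by -1.25 and -1.29, and *Aup1* by -0.76 and -0.86. *Hsd17b11*, named here after its values were seen, was the droplet protein called higher at 8 h, with 0.66, and it was called lower at 12 h, with -0.63, though 0.21 and not called after median of ratios scaling.

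In neutral lipid synthesis, 2 of 12 genes were called higher and 8 lower at 8 h on CPM, and 3 of each after median of ratios scaling. *Agpat9* (now *Gpat3*), a glycerol-3-phosphate acyltransferase of the first step, changed by 1.47 and 3.01 on CPM, while *Gpam*, its mitochondrial counterpart, changed by -1.68 and -1.94. *Lpin1* and *Lpin2*, the lipins that make diacylglycerol, changed by -4.00 and -1.36 at 8 h and by -3.48 and -0.45 at 12 h, where *Lpin2* was not called.

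Of 12 intracellular lipases and their cofactors, 1 was called higher and 9 lower at both LPS times on CPM, and 3 and 8 at 8 h after median of ratios scaling. The largest changes were in *Daglb* (-4.91 and -4.75) and *Dagla* (-4.69 and -4.11), the diacylglycerol lipases, *Pnpla7* (-3.30 and -3.41), a lysophospholipase, and *Lipa* (-2.89 and -2.43), the acid lipase of lysosomes. *Abhd5*, the coactivator of adipose triglyceride lipase and named here for that role after its values were seen, changed by -1.97 and -1.75 on CPM and by -1.19 and -0.92 after median of ratios scaling.

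Of 8 listed extracellular lipases and their regulators 4 were tested, and these 4 were called lower on CPM at each time, beside 59.8% and 60.3% of all genes. *Angptl4*, a secreted inhibitor of lipoprotein lipase, changed by -4.68 and -4.65, and after median of ratios scaling it was the 1 gene of the 4 called lower, with -4.15 and -4.10, beside 31.4% and 32.6%. *Lmf1*, *Lmf2* and *Sel1l*, which serve lipase maturation in the endoplasmic reticulum, changed by -1.23, -0.82 and -0.81 at 8 h on CPM.

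In fatty acid uptake and binding, 1 of 5 genes was called higher and 4 lower at 8 h on CPM, and 1 and 2 after median of ratios scaling. *Fabp3* rose by 2.22 and 2.70 on CPM, while *Fabp7* changed by -1.99 and -3.02 and the transporter *Slc27a1* by -3.33 and -1.83. *Cd36*, the scavenger receptor that takes up oxidised LDL, changed by -0.50 and -1.24 on CPM and by 0.29 and -0.39, not called, after median of ratios scaling. Beside *Acsl1*, the acyl-CoA synthetases *Acsl4* (1.36 and 1.00) and *Acsl5* (0.57 at 8 h) were called higher on CPM and *Acsl3* (-2.31 and -2.21) and *Acsbg1* (-0.85 at 8 h) lower.

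Of 10 genes of fatty acid oxidation, 1 was called higher and 7 lower at 8 h on CPM, and 3 of each after median of ratios scaling. The named ones were *Acadm* (-2.51 and -2.69) and *Acads* (-1.94 and -1.82), which start the oxidation of shorter acyl chains, *Cpt1a* (-1.83 and -1.93), which passes acyl groups into mitochondria, and *Hadhb* (-1.65 at 12 h). Among 6 transcription factors tested, *Hif1a*, the oxygen-regulated factor for which the hypoxia core is named, rose by 3.41 and 2.85 on CPM, and *Pparg*, which drives lipid storage genes, changed by -4.50 and -4.41. *Epas1* (-1.89 and -1.66) and *Nr1h3* (-1.60 and -0.66), which encodes the liver X receptor alpha, were also called lower on CPM.

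**Figure D5:**
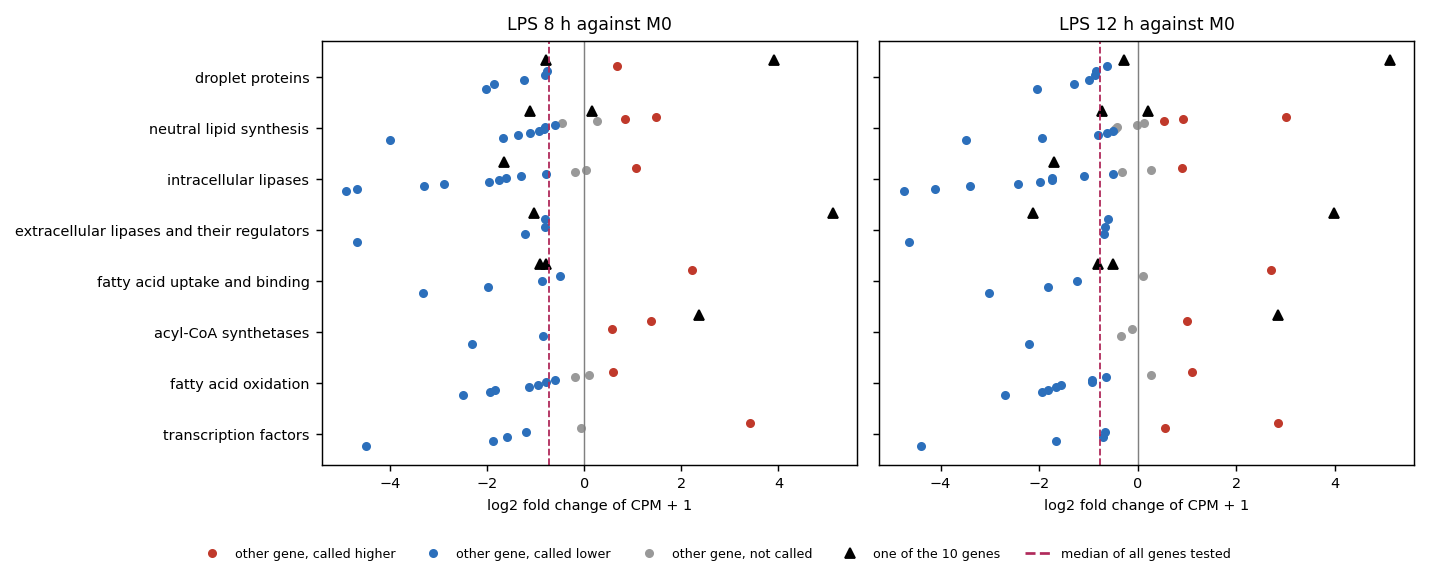
Log2 fold change of CPM + 1 at 8 h (left) and 12 h (right) of LPS against M0 for the 59 other genes of neutral lipid handling by role (circles, coloured by call) and for the 10 genes (triangles). The dashed line is the median of all genes tested, -0.72 and -0.76, and *Hilpda*, *Lipg* and *Acsl1* lie right of every other gene of their role in both panels.

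The genes most like each of the 10 were found by Pearson's r of log2(CPM + 1) over the 12 libraries, which share the LPS times, so r is a description. *Hilpda* was nearest to *Slc2a1*, which encodes the glucose transporter GLUT1, with r = 0.999, and then *Pgm2* and *Hcar2*. *Pnpla2* was nearest to *Pskh1*, *Mbd3* and *Akt1*, with r = 0.999 for the first, *Acsl1* to *Bai1*, *Gm16675* and *Mfsd7a* (0.996), and *Lipg* to *Tmem184b*, *Rgcc* and *Ildr1* (0.996). *Dgat1* was nearest to *Mob2*, *Ttyh3* and *Pex16* (0.994), *Lpl* to *Dock10*, *Mpp6* and *Phf20* (0.992) and *Plin2* to *Prss46*, *Fam129b* and *Coq4* (0.979). *Fabp5* was nearest to *Gm14328*, *Armc5* and *Ap3d1* (0.978) and *Fabp4* to *B4galt6*, *Tmem126b* and *Map4k3* (0.958). *Dgat2*, the lowest, reached 0.849 with *Rnf113a1*, followed by *Mapk8* and *Nudt17*.

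Positions are from the annotation of GRCm38, the assembly that the submitters' processing notes name as mm10, and all 10 are protein-coding genes. *Fabp5* (chr3:10012548-10016607) and *Fabp4* (chr3:10204088-10208576) are neighbours in 1 cluster of carriers. *Plin2* lies at chr4:86648386-86670060, *Hilpda* at chr6:29272488-29275446, *Pnpla2* at chr7:141455198-141460743, *Dgat2* at chr7:99153658-99182719, *Acsl1* at chr8:46471037-46536051, *Lpl* at chr8:68880491-68907448, *Dgat1* at chr15:76502015-76511953 and *Lipg* at chr18:74939322-74961263.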

How the data were processed

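RNA of wt and *Treml4*-/- BMDM at M0, M1-8 h and M1-12 h was sequenced with a stranded poly(A) kit, 2 biological replicates each, 12 libraries. The authors deposited log2 CPM, library-size scaled read counts (CPM) with a prior count of 0.25 reads, for 43280 genes. Per the paper's methods and the submitters' processing notes, the workflow used STAR and Subread, on mm10. The annotation and strand setting are not given in the sources used here. Taking the prior away left whole reads, within 0.1 read, for 100% of the values in each library, and log2 CPM rebuilt from them differed by at most 5.2e-14. With 48008751 to 58500792 reads per library, 3 reads are 0.0513 to 0.0625 CPM, and intervals on reads cover counting error only. Replicates differed by more than sampling noise (chi-square per degree of freedom 13.5 to 62.3) and were kept apart.

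The model was limma 3.58.1 (R 4.3.3) on log2(CPM + 1), fitted to all 12 libraries at once with each condition's mean and a variance trend. A gene entered it, as 12086 did, when 2 or more libraries reached 1 CPM. LPS contrasts average both genotypes, and genotype contrasts are wt minus *Treml4*-/-. The design had assumed CPM, so log2 CPM were first turned back. Scripts were tested on simulated data. The alternatives were other pseudocounts, filters, scalings, blocks, corrections and fits and leaving out each library.

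Named genes were the 10, *Treml4* and, per role of the list, up to 4 called genes with the largest LPS change. The 10 genes, lists and rules were chosen with earlier results of these data known. Of the list, 4 genes, and 2 markers, were found under an older symbol. Figures were drawn with matplotlib 3.10.9 in Python 3.11.15 from tables made with pandas 2.3.3.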

Additional observations from a re-analysis of the deposited data

How the results depend on the processing

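Scaling mattered most for LPS. With median of ratios, the members called lower numbered 1 at 8 h and 2 at 12 h, and those called higher at 12 h numbered 5. Quantile normalization also called 5 higher at 12 h, but not the same 5, since it called *Plin2* lower. These scalings turned the direction of *Plin2* at 8 h (0.013) and 12 h (0.58), *Fabp5* at 12 h (0.033), *Fabp4* at 12 h (0.25) and *Dgat1* at 12 h (0.050) with median of ratios, and of *Fabp4* at 8 h (0.20) and 12 h (0.54) and *Dgat1* at 12 h (0.26) with quantile normalization. *Plin2* at 12 h was -0.71 with quantile normalization, opposite to median of ratios. With no minimum fold change 5 members were called higher from 8 to 12 h, and leaving out single libraries gave 1 to 3, with 1 without *Treml4*-/- M1-8 h replicate 2 and 3 without *Treml4*-/- M1-8 h replicate 1 or M1-12 h replicate 2. Between genotypes at M1-8 h, 1 member was called higher with median of ratios, and leaving out single libraries gave 0 to 1 in each direction. At M1-12 h the count of *Lipg* was 0 with a pseudocount of 0.1, no filter, only the libraries compared, the deposited log2 CPM or voom (limma, adjusted p of 0.119, 0.127, 0.107, 0.321 and 0.0686), and leaving out single libraries gave 0 to 1. The cause of these changes was not tested.

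With the replicate number as a block the count at M1-12 h was also 0, with a limma adjusted p of 0.0608, and it changed no other count of members called. The sample titles number the biological replicates within each genotype, so a number may tie the libraries of a genotype across times. Deviations of same-numbered libraries correlated within a genotype between 0.06 and 0.41 in wt and between -0.27 and 0.46 in *Treml4*-/- cells. Between genotypes they correlated at -0.26 (M0), 0.30 (M1-8 h) and 0.06 (M1-12 h). Such correlations do not settle whether libraries were paired. A block for the number within each genotype, fitted for LPS, called 2072 of all genes higher and 7227 lower at 8 h. Without that block the counts were 2070 and 7225. A crossed pairing at M0, chosen after seeing the data, called 0 members. The planned edgeR and DESeq2 alternatives were not run, because the unit was declared as log2 CPM, although whole reads were recovered and voom was run on them. In all, 2036 of the single-gene comparisons kept their side of the threshold, 53 of them uncalled and with the other sign, 28 lost the call, 20 gained it and 8 reversed. At M0 *Lipg* was under the floor of 3 reads in each library, so depth limits its fold change.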
